A study of Mus musculus with 5 samples.

Results

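The genes described here are 38 genes of glycolysis and of the response to low oxygen, measured in mouse neural progenitor cells induced with chemicals (ciNPC), in neural progenitor cells taken from brain (NPC) and in mouse embryonic fibroblasts (MEF). They were taken as the probes, other than controls, whose gene name on the array was one of the 38, and they were split into 18 glycolytic enzymes, 18 other targets of the hypoxia-inducible factors (HIF) and 2 HIF alpha subunits. The array covered 21726 named genes, of which 16083 were tested. All members but the MYC antagonist Mxi1 were among them, which left 37, with 17 of the other HIF targets; Mxi1 was under background on all 5 arrays and has no comparison.

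HIF is a pair of proteins, an alpha subunit that prolyl hydroxylases mark for destruction while oxygen is present and a beta subunit that is always there. When oxygen falls the alpha subunit persists, binds short DNA sequences with the letters RCGTG near its target genes, and raises the transcription of glucose transporters, glycolytic enzymes, angiogenic factors and genes that restrain mitochondria. Glycolysis breaks glucose down to pyruvate in the cytosol without oxygen, and neural progenitors of the embryonic brain, like many dividing cells, are known to use it heavily.

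Each group consists of mouse cells with no allele or transgene named in the labels. ciNPC at passage 13 (p13) had 2 arrays, ciNPC at passage 5 (p5) had 1, NPC had 1 and MEF had 1. The title of the study says that the conversion used chemical cocktails and hypoxia, and the labels give the oxygen level at harvest for none of the 5 arrays. So a difference between ciNPC and another cell type is a difference between cultures of unknown oxygen, and each array is a bulk RNA sample, in which fewer cells of a type and less RNA per cell cannot be told apart. No label says that the p13 replicates were separate cultures, so the spread between them may be technical. Where p13 and p5 were separate groups, the spread between the p13 arrays was the only one measured. The test (limma) also drew the spread of each gene toward a trend over all genes. With 1 residual degree of freedom that trend weighs heavily. Such a p-value therefore does not measure the spread of the gene's own replicates alone. Where ciNPC was compared with MEF or NPC as a single group, the p13 and p5 arrays served as its replicates. The spread behind those p-values therefore also holds the difference between passages.

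All values are log2 of the processed signal minus the 75th percentile of the array, so 0 is the level of that percentile and a difference of 1 is 2-fold; levels of different genes come from different probes and are not set against each other. The share of spots well above background was 48.0% to 54.1% on the ciNPC arrays, 55.2% on NPC and 57.6% on MEF, and p13 replicate 2 had a spike-in slope of 0.803, outside the range the software accepts. All 3 ciNPC arrays lay on slide 2, and the NPC and MEF arrays on slide 1. ciNPC and slide therefore cannot be told apart in any comparison with MEF or NPC, whereas NPC with MEF, and p13 with p5, were compared on a common slide. Neural progenitor markers went with the labels, whereas the summed level of fibroblast markers on ciNPC lay between NPC and MEF. Of 15 neural progenitor markers, all 15 were above background on the ciNPC and NPC arrays and 8 on MEF. Their summed level was 656 to 800.5 on ciNPC, 933 on NPC and 262 on MEF. The brightest marker weighs most in such a sum, and on MEF it stood at 7.88. Their median was 1.88 to 2.11 on ciNPC, 2.70 on NPC and -3.42 on MEF. The summed level of 15 fibroblast markers was 333 to 442 on ciNPC, 5.05 on NPC and 2467 on MEF. All 15 were above background on each ciNPC array and on MEF, and 9 on NPC. Proliferation markers summed to 209 to 218 on ciNPC, 269 on NPC and 61.7 on MEF. Of 8 endothelial markers 2 to 3 were above background on the ciNPC arrays, 3 on NPC and 4 on MEF, of 8 macrophage markers 5 to 6 on ciNPC, 4 on NPC and 6 on MEF, and of 6 erythroid markers 2 on each ciNPC array, 3 on NPC and 4 on MEF.

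The members differed between ciNPC and MEF mostly in the direction of lower levels in ciNPC. Against MEF, 16 of 37 were lower in ciNPC, 3 were higher and 18 did not pass, where passing means an adjusted p under 0.05 (limma, Benjamini-Hochberg over all genes tested) and at least 2-fold. Among all genes tested, 15.3% were lower and 15.3% were higher. Of 18 glycolytic enzymes 8 were lower and 1 was higher, and of 17 other HIF targets 8 were lower and 2 were higher. The lower other HIF targets include Car9, which was above background on MEF alone. They were 7 among genes above background on all 5 arrays. The median difference was -0.75 for the glycolytic enzymes and -0.99 for the other HIF targets, against -0.09 for all genes tested. Both HIF alpha subunits were among those that did not pass.

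**Figure D1:**
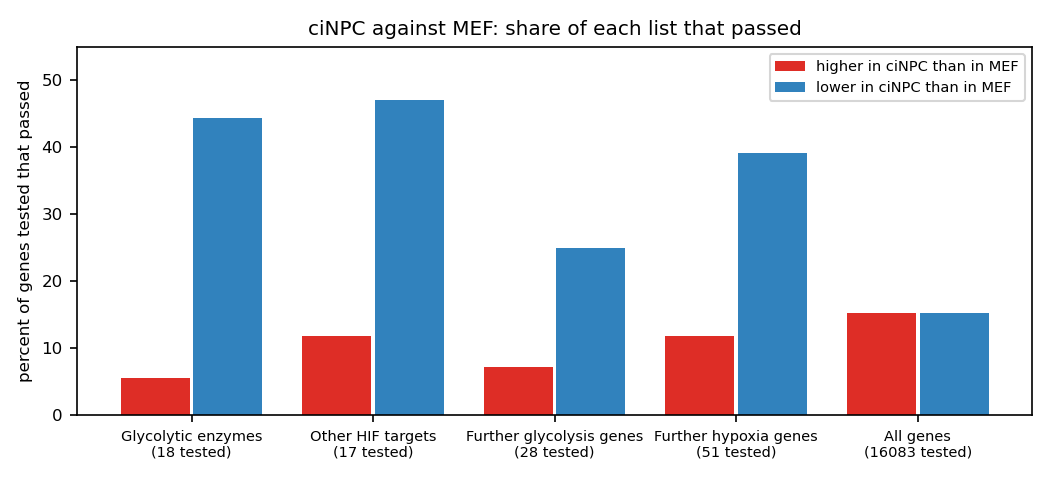
Share of each gene list, in percent of the genes tested, that was higher (red) or lower (blue) in the 3 ciNPC arrays than on the MEF array at an adjusted p under 0.05 and at least 2-fold. Among the 18 glycolytic enzymes 8 were lower and 1 was higher, and among the 17 other HIF targets 8 were lower and 2 were higher, beside 15.3% each way over all 16083 genes; the further lists are other genes of the same pathways.

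Promoter sequence was available from RefSeq (build GRCm38.p6) for 34 of the 38 members, in 51 windows of 250 bases before and 50 after a transcription start. The 5 windows printed were chosen within each class, from members that passed against MEF and have a window. They belong to the 3 other HIF targets and the 2 glycolytic enzymes with the largest differences between ciNPC and MEF. Bnip3 differed by more (-2.06) than Eno2 (-1.75) and is not printed. Ndrg1, which differed most of all, is not among the 34. Capitals mark ACGTG or GCGTG, the letters of the core hypoxia response element, on either strand, so that a match on the opposite strand reads CACGT or CACGC. The windows are P4ha2 at chr11:54100674-54100973 on the + strand, Car9 at chr4:43506776-43507075 on the + strand, Vegfa at chr17:46032328-46032627 on the - strand, Pfkl at chr10:78009758-78010057 on the - strand and Eno2 at chr6:124769624-124769923 on the - strand, each written 5′ to 3′ on the strand of its gene.
P4ha2: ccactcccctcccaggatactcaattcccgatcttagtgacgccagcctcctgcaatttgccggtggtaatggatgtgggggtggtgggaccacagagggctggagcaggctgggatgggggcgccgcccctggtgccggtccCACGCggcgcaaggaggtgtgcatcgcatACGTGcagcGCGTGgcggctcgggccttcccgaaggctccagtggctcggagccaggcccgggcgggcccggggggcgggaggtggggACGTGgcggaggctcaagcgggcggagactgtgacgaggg
Car9: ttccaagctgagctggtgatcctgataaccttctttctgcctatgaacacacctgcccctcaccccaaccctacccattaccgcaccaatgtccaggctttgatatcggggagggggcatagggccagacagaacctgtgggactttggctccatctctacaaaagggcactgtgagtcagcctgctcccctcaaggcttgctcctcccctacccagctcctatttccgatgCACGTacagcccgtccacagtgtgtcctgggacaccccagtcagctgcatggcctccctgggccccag
Vegfa: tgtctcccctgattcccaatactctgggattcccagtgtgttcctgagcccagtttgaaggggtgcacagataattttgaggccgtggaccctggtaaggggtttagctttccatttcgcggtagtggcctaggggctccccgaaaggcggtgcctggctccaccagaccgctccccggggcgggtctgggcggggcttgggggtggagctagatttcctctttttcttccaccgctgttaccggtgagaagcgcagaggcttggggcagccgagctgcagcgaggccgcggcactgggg
Pfkl: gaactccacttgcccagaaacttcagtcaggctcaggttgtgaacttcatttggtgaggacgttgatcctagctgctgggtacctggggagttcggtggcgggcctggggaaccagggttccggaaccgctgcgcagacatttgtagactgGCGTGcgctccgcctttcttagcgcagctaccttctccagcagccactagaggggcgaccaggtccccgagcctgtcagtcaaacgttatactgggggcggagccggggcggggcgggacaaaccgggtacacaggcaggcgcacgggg
Eno2: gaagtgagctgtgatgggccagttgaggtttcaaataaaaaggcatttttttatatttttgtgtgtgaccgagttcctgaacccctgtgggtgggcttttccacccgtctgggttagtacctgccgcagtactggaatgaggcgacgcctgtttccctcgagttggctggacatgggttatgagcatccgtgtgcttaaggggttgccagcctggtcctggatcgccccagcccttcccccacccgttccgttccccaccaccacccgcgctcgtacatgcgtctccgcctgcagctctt

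The P4ha2 window held 4 matches, the Car9 and Pfkl windows 1 each, and the Vegfa and Eno2 windows 0. The window of Bnip3, which is not printed, held 5. Vegfa has another listed start at chr17:46025114-46025413 with 2 matches. Of the 51 member windows, 39 (76.5%) held ACGTG or GCGTG, against 43.8% of all 32851 promoter windows of the same length. By gene, 31 of 34 members (91.2%) held a match in at least 1 window, against 46.7% of all genes with a window, and members had more windows per gene. Of these members, 15 of 18 glycolytic enzymes and all 15 other HIF targets with a window held one. ACGTG stood in 52.9% of member windows and in 19.6% of all windows, and GCGTG in 52.9% and 32.4%. ACGTG also lies inside CACGTG, the E-box that MYC and other factors bind, which stood in 9.8% of member windows and 7.15% of all windows. A match is a run of letters and not a measured site. The members were listed as glycolysis genes and HIF targets, so a higher share of these letters may follow from how they were chosen. The windows of all genes were not matched to those of the members in base composition.

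Glycolysis begins with hexokinases, which trap glucose in the cell as glucose-6-phosphate. Hk2, the inducible hexokinase, had 1.40 and 1.44 in p13, 2.01 in p5, 1.67 in NPC and 2.77 in MEF. Every ciNPC array lay under MEF, and NPC lay among the ciNPC arrays. Hk2 was lower in ciNPC by -1.16 (SE 0.26, adjusted p = 0.0102), at 44.9% of MEF. Hk1, the hexokinase of brain and most other tissues, did not pass against MEF, with -0.61 (adjusted p = 0.109). Its level was 7.24 and 7.46 in p13 and 6.72 in p5, and 7.45 in NPC against 7.75 in MEF. Another Hk1 probe, above background on all 5 arrays, did pass, at -1.085 (adjusted p = 0.00449 in the limma fit of all probes). The remaining Hk1 probe gave -0.32 and did not pass. Gpi1, the isomerase that turns glucose-6-phosphate into fructose-6-phosphate, differed by -0.49 from MEF, within 2-fold.

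Phosphofructokinase takes the committed step of the pathway, and 2 of its 3 subunit genes were lower in ciNPC. Pfkl, the liver-type subunit, had 0.38 and -0.00 in p13, 1.12 in p5, 0.41 in NPC and 2.87 in MEF. All ciNPC arrays and NPC lay far under MEF, and p13 replicate 1 and NPC had nearly the same level. Pfkl was lower in ciNPC by -2.36 (SE 0.40, adjusted p = 0.00317), at 19.4% of MEF, the largest difference among the glycolytic enzymes. Pfkp, the platelet-type subunit, was lower by -1.04 (adjusted p = 0.0137), at 48.6% of MEF. Pfkm, the muscle-type subunit, was 0.53 above MEF in ciNPC and did not pass (adjusted p = 0.052). The call for Pfkp was close to both thresholds and was lost under 8 of 14 other settings, among them the mean of its probes (-0.55, adjusted p = 0.118) and leaving out p13 replicate 1 (-0.89). Its other probe, above background on all 5 arrays, gave -0.07 (adjusted p = 0.92 in the fit of all probes).

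Of the bifunctional enzymes that set fructose-2,6-bisphosphate, the activator of phosphofructokinase, Pfkfb4 was lower in ciNPC by -1.18 (adjusted p = 0.0244), with -0.34 and -0.66 in p13, 0.17 in p5, -0.47 in NPC and 0.91 in MEF. Pfkfb3 had 2.56 and 1.88 in p13, 2.14 in p5, 2.22 in NPC and 1.41 in MEF, a difference of 0.78 that stayed within 2-fold (adjusted p = 0.0435). Its ciNPC arrays and NPC all lay above MEF. For Pfkfb4 the mean of its 2 probes gave -0.02 (adjusted p = 0.982), the other probe being under background on every array, and without p13 replicate 2 the difference was -0.99. The Pfkfb4 call was kept under 8 of 14 settings.

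Most enzymes in the middle of the pathway stayed within 2-fold of MEF. Aldoa, aldolase A, which splits the 6-carbon sugar, was 55.6% of MEF in ciNPC, Gapdh, which oxidises its product, 63.5%, and Pgk1 and Pgam1, a kinase and a mutase that follow, 104% and 92.5%; none passed 2-fold. Tpi1, the triose phosphate isomerase, had 5.46 and 5.25 in p13, 5.64 in p5, 5.41 in NPC and 6.46 in MEF. Its ciNPC arrays and NPC lay close together under MEF, and the difference was -1.01 (SE 0.17, adjusted p = 0.00289), at the 2-fold limit. The Tpi1 call was lost under 6 of 14 settings, at -0.57 with the mean of its probes (adjusted p = 0.0646) and -0.91 without p13 replicate 2, and its other probe, above background on all 5 arrays, gave -0.13. The Pgk1 probe and the Gapdh probe used map, per the array's annotation on mm9, to chromosomes 3 and 7, where RefSeq does not place these genes, so both values are uncertain.

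The last steps held 3 further enzymes that were lower in ciNPC, Eno1, Eno2 and Pkm2. Eno1, the widespread enolase, had 6.78 and 6.74 in p13, 6.85 in p5, 7.10 in NPC and 8.09 in MEF. MEF stood above the other 4 arrays, which spanned little. Eno1 was lower in ciNPC by -1.30 (SE 0.12, adjusted p = 0.000299). Eno2, the neuronal enolase, had -0.49 and -0.86 in p13, -0.74 in p5, -1.04 in NPC and 1.05 in MEF. All neural arrays lay under MEF for this neuronal isoform, and the difference was -1.75 (SE 0.24, adjusted p = 0.00141).

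Pkm2 is the array's name for the gene of muscle pyruvate kinase, now named Pkm, and is not read here as one splice form. It had 5.11 and 4.85 in p13, 5.20 in p5, 5.07 in NPC and 6.70 in MEF. Again MEF alone stood high, and Pkm2 was lower in ciNPC by -1.65 (SE 0.16, adjusted p = 0.000365), at 31.9% of MEF. Ldha, the lactate dehydrogenase subunit that favours lactate, was at 75.8% of MEF. Ldhb, the subunit that favours the return of lactate to pyruvate, had 4.86 and 4.73 in p13, 4.15 in p5, 5.13 in NPC and 2.98 in MEF. It was the single glycolytic member that was higher in ciNPC, by 1.60 (SE 0.27, adjusted p = 0.0031), 3.03-fold. The calls for Pfkl, Eno2, Pkm2 and Ldhb held under all 14 settings tried, and those for Eno1 and Hk2 under 12 of 14.

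**Figure D2:**
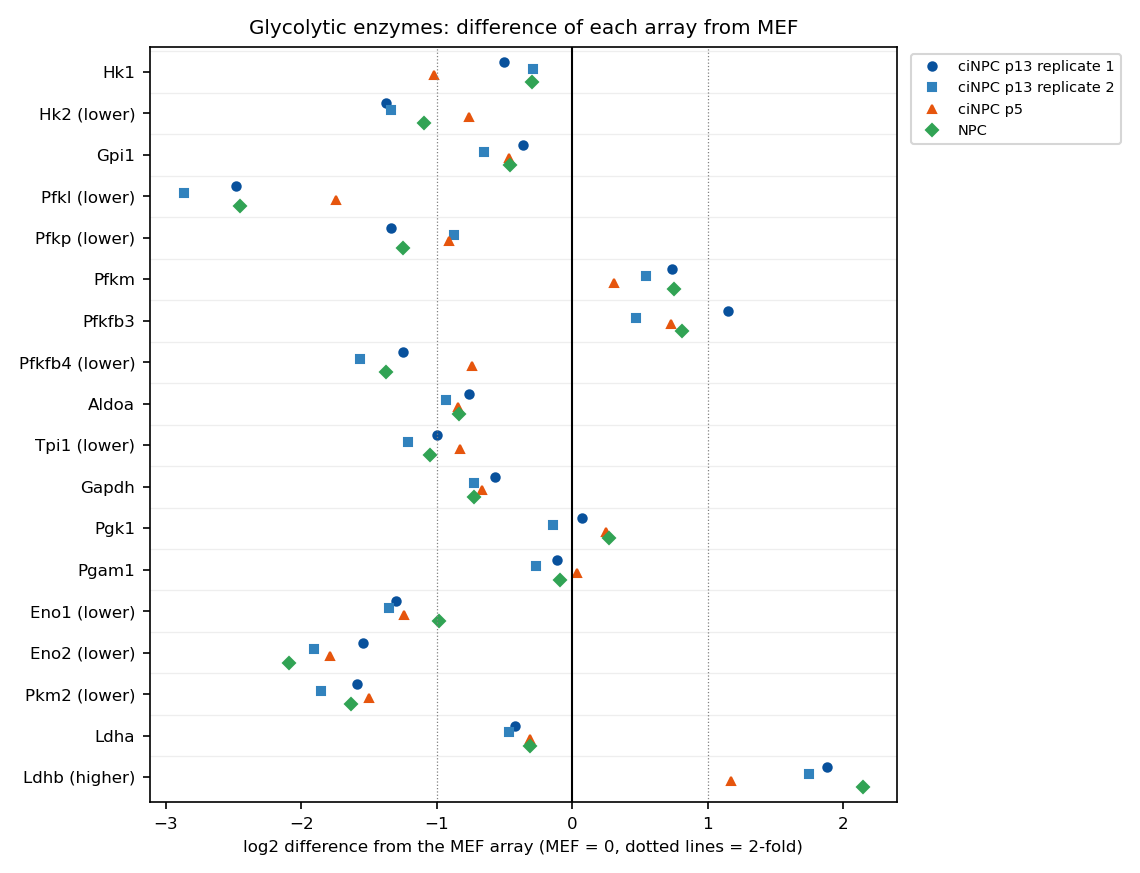
Difference of each array from the MEF array (log2, x axis, MEF at 0, dotted lines at 2-fold) for the 18 glycolytic enzymes in the order of the pathway, with ciNPC p13 replicates as blue circles and squares, ciNPC p5 as orange triangles and NPC as green diamonds. Labels mark the 8 enzymes that were lower and the 1 that was higher in ciNPC than in MEF; NPC lies beside the ciNPC arrays, for example at Pkm2 and Pfkl.

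Upstream of the enzymes, the glucose transporter Slc2a1 (GLUT1) had 3.03 and 2.57 in p13, 3.38 in p5, 2.64 in NPC and 4.13 in MEF. MEF was highest, p5 was the nearest to it, and NPC lay between the p13 arrays. Slc2a1 was lower in ciNPC by -1.13 (SE 0.28, adjusted p = 0.0165), and without p13 replicate 2 the difference was -0.92, under 2-fold. The Slc2a1 call was kept under 9 of 14 settings. Slc2a3 (GLUT3), the high-affinity transporter of neurons, had 0.24 and -0.34 in p13, 0.85 in p5, -0.32 in NPC and -0.42 in MEF. It did not pass against MEF with the ciNPC arrays together (0.67, adjusted p = 0.244). The p5 array alone was 1.26 above MEF, and the mean of the p13 arrays 0.37 above it.

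Pdk1, the kinase that shuts pyruvate out of mitochondria by inhibiting pyruvate dehydrogenase, had -1.87 and -1.89 in p13, -0.58 in p5, -1.68 in NPC and 0.20 in MEF. The p13 arrays and NPC stood together, and p5 stood between them and MEF. Against MEF Pdk1 was lower in ciNPC by -1.65 (SE 0.55, adjusted p = 0.0446), a call that 7 of 14 settings kept. Bnip3, which targets mitochondria for removal, had 2.45 and 1.76 in p13, 3.74 in p5, 1.84 in NPC and 4.71 in MEF, the same order. Bnip3 was lower in ciNPC by -2.06 (SE 0.66, adjusted p = 0.0394), a call that 9 of 14 settings kept, p5 alone giving -0.97. Its relative Bnip3l was at 58.9% of MEF and Higd1a, a small mitochondrial protein, at 103%; neither passed.

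Among secreted and surface proteins, Vegfa, the vascular endothelial growth factor, had 1.44 and 1.22 in p13, 2.36 in p5, 1.50 in NPC and 3.77 in MEF. No ciNPC array reached MEF, and NPC lay just above the p13 arrays. Vegfa was lower in ciNPC by -2.10 (SE 0.41, adjusted p = 0.00592), at 23.4% of MEF. Car9, a carbonic anhydrase of the cell surface, is a widely used marker of hypoxia. It had -4.65 and -4.12 in p13, -4.05 in p5 and -4.62 in NPC, all under background. On MEF it was well above background, at -1.22. Against the lowest signal well above background, Car9 was at least 4.84-fold lower in ciNPC and at least 9.32-fold lower in NPC than in MEF. The limma difference of -3.05 (adjusted p = 0.0105) uses the values under background as they stand. Car9 was tested because of its MEF array alone, which favours a lower call in ciNPC. Adm, the vasodilator peptide adrenomedullin, went the other way, with 2.79 and 2.49 in p13, 2.32 in p5, 2.48 in NPC and 0.88 in MEF. It was higher in ciNPC by 1.65 (SE 0.20, adjusted p = 0.000845), 3.14-fold.

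The prolyl 4-hydroxylase alpha subunits, which modify collagen in the endoplasmic reticulum, were lower. P4ha2 had 2.13 and 2.00 in p13, 2.13 in p5, -0.12 in NPC and 5.44 in MEF. The ciNPC arrays agreed closely and lay between NPC and MEF, apart from both. P4ha2 was lower in ciNPC by -3.35 (SE 0.14, adjusted p = 1.55e-05), at 9.77% of MEF. P4ha1 was lower by -1.05 (SE 0.27, adjusted p = 0.0179), or -0.90 without p13 replicate 2, a call that 8 of 14 settings kept. Ero1l, the oxidase that forms disulphide bonds in the same compartment, had -1.71 and -1.83 in p13, -0.99 in p5, -1.70 in NPC and -0.52 in MEF. It did not pass (-0.99, adjusted p = 0.083), although without the p5 array it did (-1.26, adjusted p = 0.00642).

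Ndrg1, a stress-response gene used as a marker of hypoxia, had 0.14 and 0.50 in p13, 0.37 in p5, 0.08 in NPC and 3.70 in MEF. All 4 other arrays lay together far under MEF, and Ndrg1 was lower in ciNPC by -3.36 (SE 0.19, adjusted p = 5.21e-05), at 9.71% of MEF. Ankrd37, another target of HIF, was at 53.9% and Kdm3a, a histone demethylase that HIF induces, at 159%; neither reached 2-fold.

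Of the prolyl hydroxylases that turn HIF off, 1 passed. Egln1 (PHD2), the main prolyl hydroxylase that marks HIF alpha, had -1.33 and -0.78 in p13, -1.83 in p5, -1.19 in NPC and -2.84 in MEF. MEF was lowest, and Egln1 was higher in ciNPC by 1.53 (SE 0.45, adjusted p = 0.0294), a call kept under 8 of 14 settings. Egln3 (PHD3), itself induced by HIF, was -0.61 from MEF and did not pass (adjusted p = 0.267). Hif1a had 1.43 and 1.19 in p13, 1.53 in p5, 1.58 in NPC and 1.39 in MEF, and its difference from MEF was -0.00 (SE 0.18, adjusted p = 0.991). Epas1, which encodes HIF-2 alpha, differed by -0.43 (adjusted p = 0.175). HIF alpha is controlled mainly through protein stability, which these arrays do not measure. The calls for Ndrg1, P4ha2, Adm and Car9 held under all settings in which they could be tested.

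**Figure D3:**
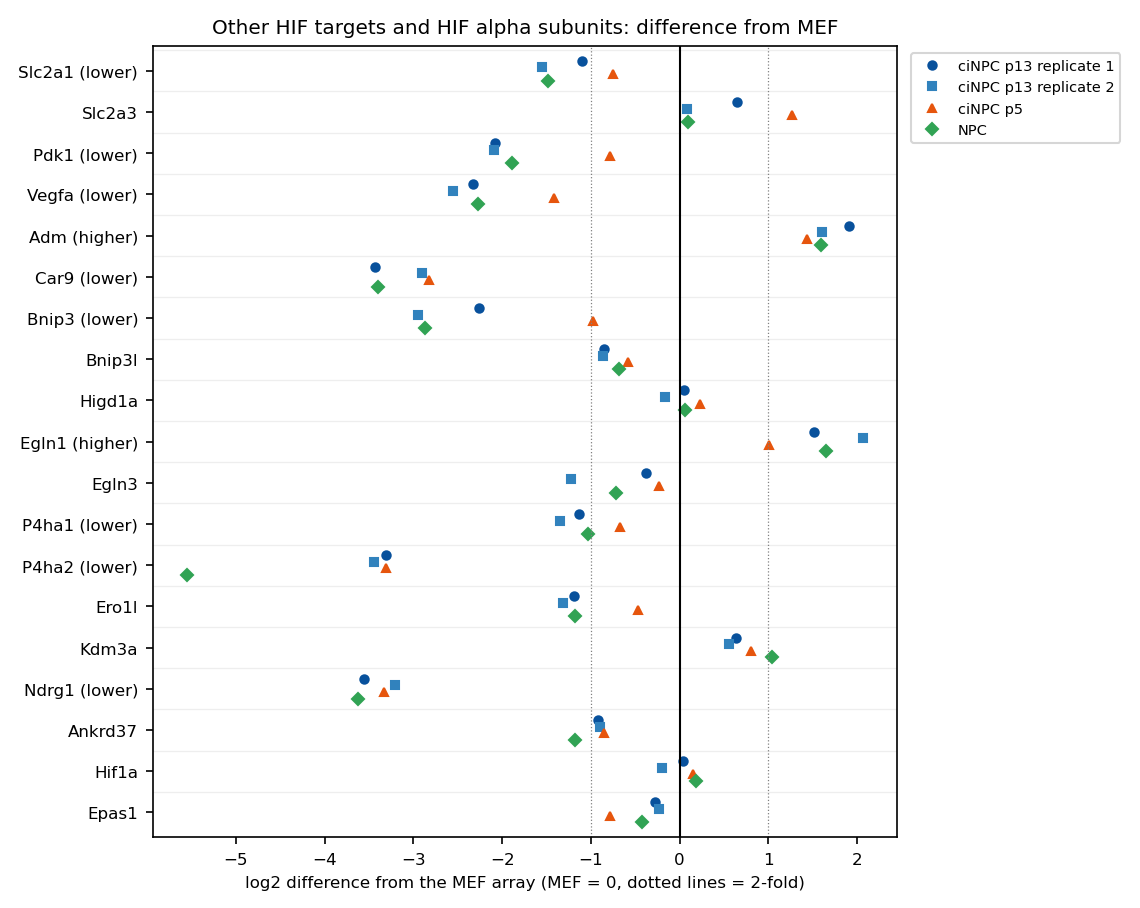
Difference of each array from the MEF array (log2, x axis, MEF at 0, dotted lines at 2-fold) for 17 other HIF targets and 2 HIF alpha subunits, with symbols for ciNPC p13 replicates, ciNPC p5 and NPC. For Bnip3, Pdk1 and Vegfa the p5 triangle lies nearer to MEF than the p13 symbols and NPC do, and for P4ha2 NPC lies apart from the ciNPC arrays; Car9 was under background on all arrays but MEF.

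Beside these differences, 9 of 9 proliferation markers tested were higher in ciNPC than in MEF and 14 of 15 fibroblast markers were lower. Of 15 neural progenitor markers 12 were higher and 1 was lower. The part of these shifts in the members' differences was not tested.

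Few genes passed between ciNPC and NPC, among all genes tested as among the members. A single member, P4ha2, was higher in ciNPC, by 2.20 (SE 0.14, adjusted p = 0.00016), 4.6-fold, and 0 were lower by limma's test. Over all genes tested, 4.82% were higher and 0.0808% were lower, with 2886 of 16083 at an unadjusted p under 0.05. Of the 37 members, 36 (97.3%) lay within 2-fold of NPC, against 84.3% of all genes. The median difference from NPC was -0.03 for the glycolytic enzymes and 0.19 for the other HIF targets, against -0.13 for all genes. The widest differences from NPC after P4ha2 were 0.81 for Bnip3 (adjusted p = 0.536), 0.57 for Slc2a3 (adjusted p = 0.504) and -0.54 for Ldhb (adjusted p = 0.341). With p5 alone set against NPC, the other HIF targets that passed were 4, Slc2a3 (1.17), Pdk1 and Bnip3 (1.90) being added to P4ha2. All 15 fibroblast markers were higher in ciNPC than in NPC, and their part in the P4ha2 difference was not tested.

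NPC against MEF, 1 array each on the same slide, has no test and no replicate check. Among the glycolytic enzymes 7 were at least 2-fold lower in NPC and 1, Ldhb, was at least 2-fold higher, and among the other HIF targets 10 were lower and 3 were higher. Over all genes 21.7% were that much lower and 21.1% higher. NPC was at 18.3% of MEF for Pfkl, 32.3% for Pkm2, 20.7% for Vegfa, 13.7% for Bnip3, 8.13% for Ndrg1 and 2.12% for P4ha2; these values use the same MEF array as those of ciNPC. Kdm3a at 206% and Ankrd37 at 44.2% passed 2-fold in NPC. Eno1 at 50.5% did not. At 4-fold, 2 glycolytic enzymes and 5 other HIF targets were lower in NPC, and 1 and 0 were higher, where all genes gave 10.3% lower and 8.22% higher.

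Between passages, 3 other HIF targets were lower in p13 than in p5 and no glycolytic enzyme passed. Over all genes 0.205% were lower and 0.367% were higher, 33 and 59 genes (3676 of 16083 had an unadjusted p under 0.05), a split of 64.1% higher that was 77.9% with the 75th percentile taken over detected probes. Bnip3, with 2.45 and 1.76 in p13 and 3.74 in p5, was lower by -1.64 (SE 0.21, adjusted p = 0.00574), at 32.2% of p5. Pdk1, with -1.87 and -1.89 in p13 and -0.58 in p5, was lower by -1.30 (SE 0.26, adjusted p = 0.0228), at 40.6% of p5. Vegfa, with 1.44 and 1.22 in p13 and 2.36 in p5, was lower by -1.03 (SE 0.12, adjusted p = 0.00374), at 49.1% of p5. In all 3 the p13 arrays lay nearer to NPC than p5 did, and p5 lay between them and MEF. These calls rest on 1 p5 array and 1 residual degree of freedom: all were lost with the authors' value table, with quantile normalization (adjusted p = 0.106 for Bnip3, 0.135 for Pdk1 and 0.104 for Vegfa) and without the intensity trend (adjusted p = 0.502 for each). Vegfa was lost under 5 of 9 tested settings, among them the percentile over detected probes (-0.96) and the mean of its probes (-0.71), where it fell short of 2-fold, and Pdk1 was also lost with normexp background correction (-0.81). Their sizes ranged over the settings from -1.98 to -1.29 for Bnip3, -1.56 to -0.81 for Pdk1 and -1.14 to -0.71 for Vegfa.

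The order of the passages was counted over all members tested, those 3 included. The p5 array lay above both p13 arrays in 14 of 17 other HIF targets (82.4%) and in 9 of 18 glycolytic enzymes, against 39.7% of all genes. Both p13 arrays lay under p5 and p5 under MEF in 11 of 17 other HIF targets and 7 of 18 glycolytic enzymes, against 19.0% of all genes. Among the 14 other HIF targets that did not pass between passages, p5 lay above both p13 arrays in 11 and also under MEF in 8, which include Car9, under background on all ciNPC arrays, and P4ha2, whose passages were nearly equal. Slc2a3 differed between passages by -0.90 (adjusted p = 0.0511) and Slc2a1 by -0.58 (adjusted p = 0.0564), and the median over the 17 was -0.34 beside 0.01 for all genes. Among the enzymes, Pfkl (-0.93, adjusted p = 0.0159) and Hk2 (-0.59, adjusted p = 0.0161) were under p5 within 2-fold, and Ldhb (0.64, adjusted p = 0.00841) and Hk1 (0.63, adjusted p = 0.0202) were above it within 2-fold. All 15 fibroblast markers had negative values in p13 against p5, with a median of -0.42 and 0 passing; their part was not tested. Among the 3 ciNPC arrays the SD of a member had a median of 0.24, with Bnip3 (1.00) and Pdk1 (0.75) at the top.

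**Figure D4:**
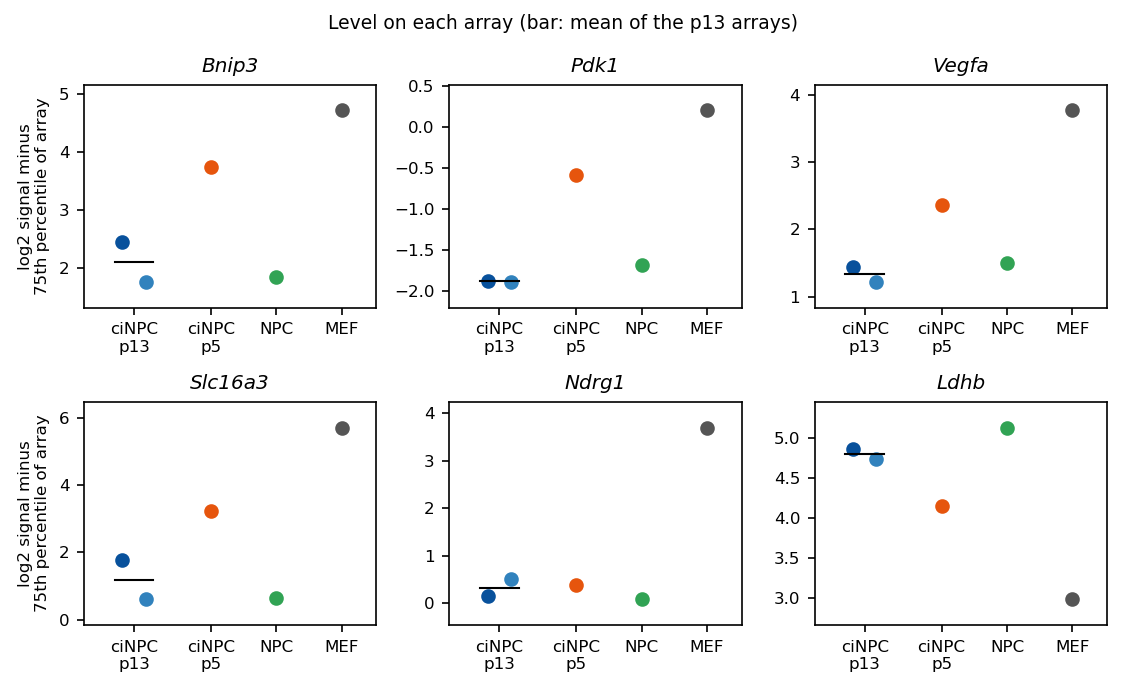
Level on each array (log2 of the processed signal minus the 75th percentile of the array) of Bnip3, Pdk1 and Vegfa, which were lower in p13 than in p5, of the lactate exporter Slc16a3, and of Ndrg1 and Ldhb for contrast; each point is 1 array and the bar is the mean of the p13 arrays. In the first 4 panels p5 lies between p13 and MEF, whereas Ndrg1 is low on all arrays but MEF and Ldhb is lowest in MEF.

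Further genes of both pathways came from lists that hold none of the members. Of 28 further glycolysis genes tested, 7 were lower and 2 were higher in ciNPC than in MEF. Of 51 further hypoxia genes 20 were lower and 6 were higher, beside 15.3% each way over all genes. Slc16a3 (MCT4), the exporter of lactate, had 1.78 and 0.60 in p13, 3.24 in p5, 0.64 in NPC and 5.71 in MEF. It was lower in ciNPC than in MEF by -3.84 (adjusted p = 0.0103) and lower in p13 than in p5 by -2.05 (adjusted p = 0.0123), the single further glycolysis gene that passed between passages. Pygl, a glycogen phosphorylase, was lower in ciNPC by -4.00, Gys1, a glycogen synthase, by -1.57, and Eno3, the muscle enolase, by -1.84. Aldoc, the brain aldolase, was higher by 3.80, with 5.07 and 4.65 in p13, 4.62 in p5, 5.13 in NPC and 0.98 in MEF, and Pdhx, a subunit of pyruvate dehydrogenase, by 1.41.

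Among the further hypoxia genes, Ddit4, an inhibitor of mTOR signalling, was lower in ciNPC than in MEF by -3.25 (adjusted p = 9.7e-06). Tmem45a was lower by -4.36, and Loxl2, which crosslinks collagen, by -2.82. Ndufa4l2, which restrains mitochondrial complex I, was well above background on MEF alone, was tested because of that array, and was at least 58.5-fold lower in ciNPC. Its limma difference, with the values under background as they stand, was -6.53 (adjusted p = 0.000664). Igfbp3, which binds insulin-like growth factors, was higher by 3.79, Tfrc, the transferrin receptor, by 2.39, and Arnt2, a neural partner of HIF alpha, by 1.86; Hif3a, a HIF alpha form that can oppose the others, was under background in MEF and at least 5.17-fold higher in ciNPC. Against NPC, 10 of 51 further hypoxia genes were higher and 0 were lower, beside 4.82% higher and 0.0808% lower over all genes. Flt1, a VEGF receptor, was at least 85-fold, Lox, which crosslinks collagen, at least 75.8-fold and Tmem45a at least 6.76-fold above NPC, where each was under background. Between passages, Selenbp1 was lower in p13 than in p5 by -1.02 (adjusted p = 0.00679). Cxcr4, a chemokine receptor under background in p5, was at least 3.41-fold higher in p13, with a limma difference of 2.33 (adjusted p = 0.0447). Slc2a4, the insulin-responsive glucose transporter, and Eno3 were higher in ciNPC than in NPC, by 1.91 and 1.26. They were the 2 of 28 further glycolysis genes tested that passed as higher, beside 4.82% of all genes.

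Of the 38 members, 15 had more than 1 probe. Where several probes of a gene were above background on all 5 arrays, they differed in the sign of the difference from MEF for 3 genes, Epas1 (-0.43 to 1.11), Gapdh (-0.94 to 0.55) and Ldha (-0.40 to 0.28), so their values hold for the probe used and not for the gene. The probes of Vegfa gave -4.40 and -2.10 against MEF but -0.39 and -1.03 for p13 against p5. Those of Bnip3 lay together against MEF and gave -1.64 and -1.76 between passages. Per the array's annotation on mm9, the probe used lies at chr7:146082760-146082819 for Bnip3, chr17:46154387-46154446 for Vegfa, chr2:71739688-71739747 for Pdk1, chr11:53945032-53945091 for P4ha2 and chr15:66761057-66761116 for Ndrg1.

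**Figure D5:**
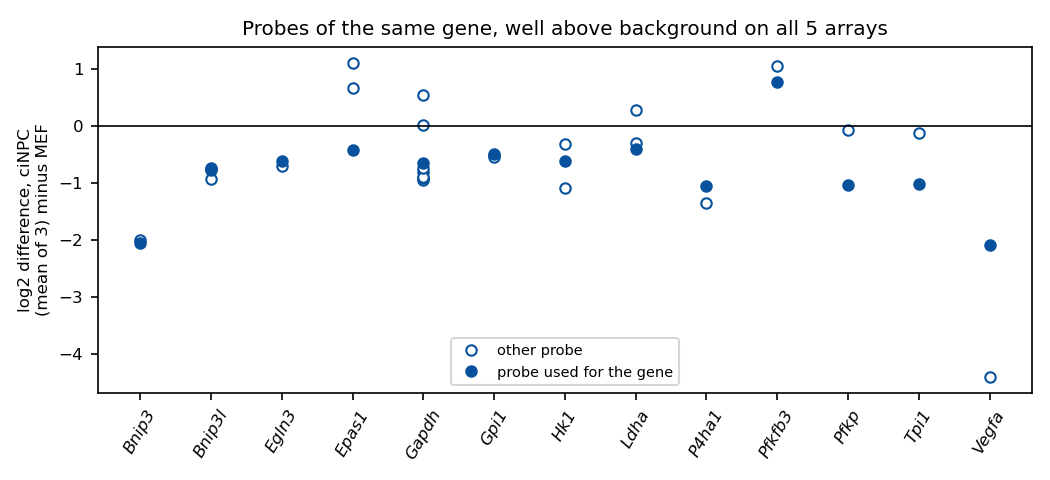
Difference of ciNPC (mean of 3 arrays) from MEF, in log2, for each probe of the members that had more than 1 probe above background on all 5 arrays; filled circles are the probe used for the gene and open circles the others. The probes of Bnip3 fall together, those of Epas1, Gapdh and Ldha lie on both sides of 0, and those of Vegfa are both below 0 at -2.10 and -4.40.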

How the data were processed

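The members and gene lists were chosen with earlier results of these data known. RNA of each sample was hybridised to 1 single-colour (Cy3) Agilent array. The deposited array files give each spot's processed signal as an intensity, background-subtracted within the array, extracted with Agilent Feature Extraction 10.7.1.1 per the submitters' processing notes. The deposited value table holds log2 values, used as an alternative; its columns shared a median of 5.65 and correlated at 0.995 to 0.999 with log2 of the array's own signal, and its normalization step and the scale's centring are not given in the sources used here.

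Here log2 of the intensity minus the array's 75th percentile was taken, control spots and outlier flags were left out, and spots of one probe were averaged; 7 probes without a value on some array were dropped. Probes were named through RefSeq accessions or symbols (members by the array's gene name), and each gene took its brightest probe. A gene was tested if all arrays of any 1 group (p13, p5, NPC or MEF) had its probe well above background (16083 genes). limma 3.58.1 (R 4.3.3; lmFit, eBayes with intensity trend) was fitted with 3 cell types (2 residual degrees of freedom) or 4 groups (1 residual degree of freedom), assuming that lone arrays vary like the ciNPC arrays, and was tested on simulated data. The number of arrays limits the precision. A fold against a group under background is a lower bound against the lowest signal well above background on that array. An adjusted p printed for such a gene belongs to the limma difference without that bound. NPC and MEF were compared without a test. All 38 members are named, and from the further pathway lists up to 4 genes per direction and comparison with the largest difference that passed, among those well above background on every array of the brighter cell type; 1 gene that this rule names is not reported here. From the neural progenitor, fibroblast, endothelial, macrophage, erythroid and proliferation marker lists only counts and summary levels are given.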

Additional observations from a re-analysis of the deposited data

How the results depend on the processing

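No member that passed changed direction under the alternatives tried. For ciNPC against MEF, the 8 lower glycolytic enzymes were 4 with quantile normalization and with the authors' value table, 5 with the mean of all probes, without the intensity trend and with p5 alone, and 6 to 8 with 1 ciNPC array left out. The 8 lower other HIF targets were 4 with quantile normalization, with the authors' table and with p5 alone, 3 without the trend, and 6 to 9 with an array left out. The 2 higher ones were 1 with normexp, quantile normalization, the authors' table, no filter on dim probes or no trend. All genes passing were 4923, 8473 when each probe was a feature, and 4672 to 5638 with an array left out. For ciNPC against NPC, 788 genes passed, 434 among genes above background on all 5 arrays, 1244 with p5 alone and 909 to 1149 with an array left out; other HIF targets higher were 1, and 4 with p5 alone. For p13 against p5, 92 genes passed, 2 with quantile normalization or the authors' table, 140 with the percentile over detected probes, 146 without a filter, 52 among genes above background on all 5 arrays, 148 with the mean of probes, 313 with each probe a feature and 0 without the trend, where 3676 of 16083 genes had an unadjusted p under 0.05 with the trend; the 3 lower other HIF targets were 0 with quantile normalization, the authors' table or no trend, and 2 with normexp (without Pdk1) and with the percentile over detected probes or the mean of probes (without Vegfa). For NPC against MEF, 6889 genes passed 2-fold and 2971 passed 4-fold; the 7 lower glycolytic enzymes were 2 at 4-fold and 4 with the mean of probes, the 3 higher other HIF targets 0 at 4-fold and the 10 lower ones 5. The cause of these changes was not tested, except that the 4-fold limit and the stricter filter lower the counts by construction. Taking the percentile over detected probes moved the median of all genes from -0.09 to 0.04 for ciNPC against MEF and from -0.13 to -0.03 for ciNPC against NPC. Differences of members that did not pass changed sign in 19 of 252 values against MEF, 81 of 503 against NPC and 21 of 373 between passages, with sizes up to 0.45. No paired analysis was possible because the p13 arrays alone carry replicate numbers, so the groups compared share fewer than 2 of them. The fits had 2 residual degrees of freedom or 1; probes near background, such as those of Car9, give bounds only.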
